A study of Rattus norvegicus with 6 samples.

Results

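Hox genes encode homeodomain transcription factors that lie in 4 chromosomal clusters, HoxA to HoxD, and 22 of them were measured here among 14506 genes in all. The members were all rows of the value table whose single gene symbol in the platform annotation was Hoxa, Hoxb, Hoxc or Hoxd followed by a number, and each gene had 1 row. In the rat assembly GRCr8 the RefSeq gene table lists 39 protein-coding genes with such names, and the other 17 were not analysed here. The cultures were primary motor neurons from rat embryos of embryonic day 13.5, kept for 2 days in vitro. One group received 1 microM camptothecin for 2 h, and the other the same volume of its solvent DMSO. Camptothecin poisons topoisomerase 1 by holding it on the DNA it has cut. Each group had 3 arrays called biological replicates in the labels. Because nothing says that these came from separate preparations, p-values cover no more than the spread among these arrays, which may be technical.

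Within a cluster, Hox genes stand in the order in which they are used along the body, low-numbered genes towards the hindbrain and high-numbered ones towards the tail, and genes with the same number in different clusters are called a paralogue group. In the spinal cord the combination of Hox proteins in a motor neuron sets the column and pool to which it belongs and so the muscle it supplies. Hox proteins bind DNA together with TALE homeodomain proteins of the Pbx and Meis families, and Polycomb and Trithorax proteins keep Hox clusters silent or active in a given cell.

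All values are log2 expression values as deposited, 1 per gene and array. Differences are camptothecin minus DMSO with the standard error (SE) of limma, n = 3 arrays per group. The test was limma's with Benjamini-Hochberg adjustment over all 29214 rows and a threshold of 0.05, and rose or fell is written only of genes past it. The medians of the camptothecin arrays were 6.31 to 6.33 and those of the DMSO arrays 6.22 to 6.28, and Pearson's r was 0.992 to 0.995 within and 0.983 to 0.985 between groups. Array values give a difference for 1 gene, not the abundance of one gene against another, and the number of arrays limits their precision. A gene is called dim where its mean over the 6 arrays lay below the median of all rows, 6.28.

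After 2 h of camptothecin 5 of the 22 Hox genes rose and 0 fell, and the other 17 did not pass the test. At an unadjusted p under 0.05 limma gave 7 of the 22 higher and 0 lower, beside 3224 and 1925 of all 14506 genes. The 5 were Hoxb8, Hoxa11, Hoxb7, Hoxc9 and Hoxd10, and their rises were small, 1.21-fold to 1.39-fold. Among all 14506 genes 11.3% rose and 9.35% fell, so the 22.7% of Hox genes that rose stands beside a large background. The median change was 0.13 for the 22 Hox genes and 0.06 for all genes. The count and the sign of the median depended on how arrays were scaled. With each array centred on its ribosomal protein genes the Hox median was -0.12, with 0 Hox genes higher and 2 lower, as described further on.

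Hoxb8 had the largest change of the 22. It measured 8.81, 9.11 and 8.89 with camptothecin, against 8.52, 8.55 and 8.32 with DMSO. The lowest camptothecin array lay above the highest DMSO array, and the rise was 0.47 on the log2 scale (SE 0.10, limma adjusted p = 0.0233). Hoxb8 lies beside Hoxb7 in the cluster, and in the mouse it is known for its part in dorsal spinal circuits and in grooming behaviour.

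Hoxb7 gave 9.61, 9.58 and 9.50 with camptothecin, against 9.32, 9.25 and 9.08 with DMSO. All camptothecin arrays were again above all DMSO arrays, by 0.35 on average (SE 0.08, limma adjusted p = 0.0313).

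Hoxc9 is the Hox protein that marks thoracic levels of the spinal cord, where it holds back the limb-level programme of motor neurons in the mouse. Its 3 camptothecin arrays stood at 7.68, 7.68 and 7.68, against 7.38, 7.32 and 7.36 in DMSO. The groups were well apart and the camptothecin arrays nearly equal, and the rise was 0.33 (SE 0.06, limma adjusted p = 0.0121), which is 1.25-fold.

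Hoxd10 and its paralogues act at lumbar levels, where they set the hindlimb-innervating motor neurons in the mouse. Hoxd10 measured 10.08, 10.08 and 10.04 with camptothecin and 9.83, 9.76 and 9.80 with DMSO. The groups did not overlap, and the rise was 0.27 (SE 0.06, limma adjusted p = 0.0257).

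Hoxa11, a gene of limb, kidney and uterine development, was dim. It measured 6.42, 6.51 and 6.45 with camptothecin, against 6.20, 6.15 and 5.89 with DMSO. The DMSO arrays spread more widely, with replicate 3 lowest, and all lay below the camptothecin arrays. The rise was 0.38 (SE 0.10, limma adjusted p = 0.0349).

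**Figure D1:**
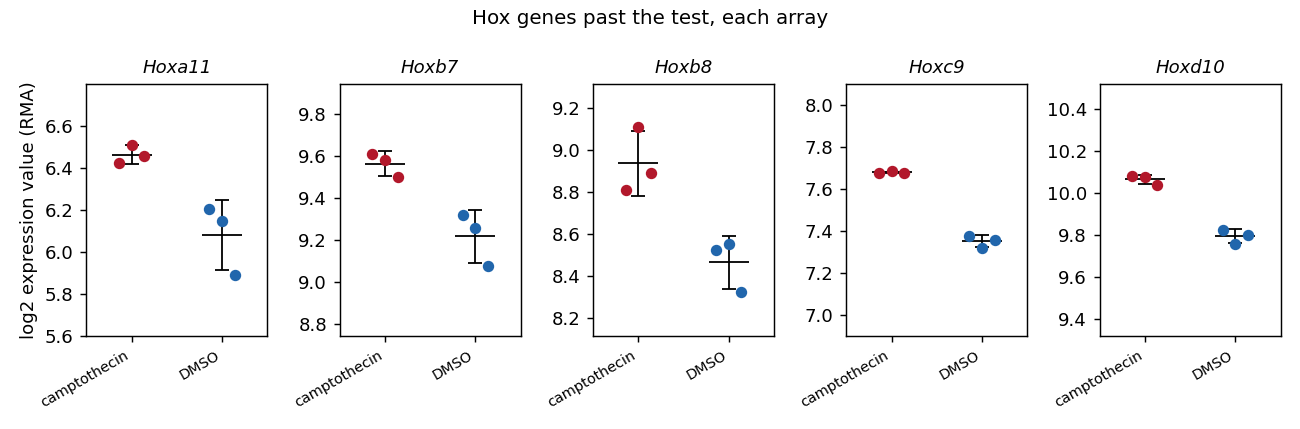
Log2 expression value (vertical axis, RMA scale) of the 5 Hox genes past the test in each of 3 camptothecin arrays (red) and 3 DMSO arrays (blue). Bars are the mean and SD of 3 arrays, each panel spans the same log2 range, and in every panel the camptothecin arrays lie above the DMSO arrays.

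Each of these 5 calls was lost in at least 1 of the 6 fits that left out 1 array. With 1 array left out, Hoxc9 kept its call in 5 of the 6 fits and lost it without DMSO replicate 2 (limma adjusted p = 0.0556). Hoxb8 kept it in 1, the fit without camptothecin replicate 1 (adjusted p = 0.0284). Hoxb7 and Hoxa11 kept it in 1 each, the fit without DMSO replicate 1 (adjusted p = 0.0489 for Hoxb7 and 0.048 for Hoxa11). Hoxd10 kept it in 0 of the 6. In these fits, each with 1 array fewer to test with, the change ran from 0.29 to 0.44 for Hoxa11, 0.28 to 0.40 for Hoxb7, 0.39 to 0.54 for Hoxb8, 0.31 to 0.34 for Hoxc9 and 0.25 to 0.28 for Hoxd10. Hoxa11 and Hoxb7 had their smallest change without DMSO replicate 3, and Hoxb8 without camptothecin replicate 2.

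Sequences upstream of the start site are shown for Hoxa11 and Hoxd10, which rose, for Hoxd9, the neighbour of Hoxd10 that did not pass the test, and for Hoxd4, which had the lowest change of the 22. Each is the 250 bases before the RefSeq start of the gene in GRCr8, written 5′ to 3′ on the strand of the gene. Capitals mark the CCAAT box, the Sp1 motif GGGCGG, the E-box motif CACGTG, the TATA box motif TATAAA, the cyclic AMP response element TGACGTCA, the caudal-type motif TTTATNG and the Pbx-Hox motif TGATTNAT, each searched on both strands, with 0 overlaps between different motifs in these windows. The windows are chr4:82676802-82677051 on the minus strand for Hoxa11, and chr3:80001697-80001946, chr3:80007756-80008005 and chr3:80021636-80021885 on the plus strand for Hoxd10, Hoxd9 and Hoxd4.
Hoxa11: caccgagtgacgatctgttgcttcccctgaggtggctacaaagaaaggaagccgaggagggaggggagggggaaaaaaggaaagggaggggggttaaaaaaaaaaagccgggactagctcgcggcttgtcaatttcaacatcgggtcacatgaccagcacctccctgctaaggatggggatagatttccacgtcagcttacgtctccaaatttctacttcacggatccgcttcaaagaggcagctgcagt
Hoxd10: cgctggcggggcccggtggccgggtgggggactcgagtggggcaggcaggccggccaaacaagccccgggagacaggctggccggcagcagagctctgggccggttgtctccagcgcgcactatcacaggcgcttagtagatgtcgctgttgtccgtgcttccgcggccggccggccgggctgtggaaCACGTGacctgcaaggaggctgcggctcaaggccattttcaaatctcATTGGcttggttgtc
Hoxd9: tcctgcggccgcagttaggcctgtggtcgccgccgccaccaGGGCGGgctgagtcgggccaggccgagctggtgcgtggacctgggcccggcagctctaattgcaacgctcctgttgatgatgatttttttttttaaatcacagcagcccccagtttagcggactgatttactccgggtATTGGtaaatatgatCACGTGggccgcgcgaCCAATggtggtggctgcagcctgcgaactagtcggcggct
Hoxd4: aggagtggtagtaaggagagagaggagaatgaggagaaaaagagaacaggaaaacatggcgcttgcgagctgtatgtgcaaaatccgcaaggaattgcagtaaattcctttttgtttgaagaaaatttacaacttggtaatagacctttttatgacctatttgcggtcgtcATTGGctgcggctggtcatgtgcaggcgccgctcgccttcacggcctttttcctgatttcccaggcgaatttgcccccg

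The RefSeq table held windows for 11 of the 22 genes, namely Hoxa2, Hoxa4, Hoxa7, Hoxa11, Hoxc4, Hoxd1, Hoxd3, Hoxd4, Hoxd9, Hoxd10 and Hoxd13. CACGTG, the sequence bound by basic helix-loop-helix factors such as Usf1 and Myc, stood in 6 of the 11 (Hoxa4, Hoxa7, Hoxd1, Hoxd3, Hoxd9 and Hoxd10), against 5.59% of 33469 promoter windows of the same length. That motif was chosen after the letters were seen, and it holds a CpG, in which Hox windows are rich, with a median of 20 CpG against 5 in all windows. Among windows with at least 20 CpG, 5 of 6 Hox windows held it, against 10.5% of 5596 windows. These 6 are among the windows in which the motif was first seen, so the comparison is no test. CCAAT stood in 6 of the 11 (34% of all windows) and GGGCGG in 5 (30.5%). TATAAA was found in Hoxd13 (12.9% of all windows) and TGATTNAT in Hoxa2 (2.82%), and TGACGTCA and TTTATNG in 0 of the 11 (1.59% and 10.1%). Of the 2 risers with a window, Hoxd10 holds CCAAT and CACGTG once each, and Hoxa11 has no match to any of these motifs. A match is a description of letters and says nothing of a factor at work.

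Besides the 5 genes past the test, 6 Hox genes had all camptothecin arrays above all DMSO arrays, namely Hoxa2, Hoxa5, Hoxa7, Hoxb4, Hoxb9 and Hoxd9. In all, 11 of the 22 were separated this way and 0 the other way, while 27.1% of all genes were separated upwards and 15.5% downwards. For a single gene such a separation has a two-sided exact permutation p of 0.1, and no smaller p can be had with this number of arrays.

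Hoxa7, a paralogue of Hoxb7, had the second largest change of the 22 but did not pass. It measured 8.31, 8.82 and 8.31 with camptothecin, against 8.16, 8.15 and 7.99 with DMSO. Camptothecin replicate 2 lay far above the other two, and the change of 0.38 had an SE of 0.15 (limma adjusted p = 0.123). Hoxd9 gave 6.92, 7.28 and 7.002 with camptothecin and 6.81, 6.91 and 6.63 with DMSO, a change of 0.29 (SE 0.12, adjusted p = 0.151). Replicate 2 was again the highest camptothecin array. Hoxb9 gave 10.08, 10.34 and 10.11 with camptothecin and 10.04, 9.98 and 9.92 with DMSO, a change of 0.19 (SE 0.09, adjusted p = 0.191).

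Hoxa2, which patterns the hindbrain and the second pharyngeal arch, measured 8.08, 8.39 and 8.01 with camptothecin, against 7.98, 7.85 and 7.93 with DMSO. The groups were close but did not overlap, and the change was 0.24 (SE 0.11, adjusted p = 0.18). Hoxd1, a dim gene with a role in pain-sensing neurons of the mouse, gave 5.93, 6.29 and 6.10 with camptothecin, against 5.83, 5.89 and 5.99 with DMSO. Its groups overlapped, and the change was 0.20 (SE 0.10, adjusted p = 0.233).

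Hoxa5, which acts in cervical and brachial motor neurons including those of the phrenic nerve in the mouse, measured 10.26, 10.36 and 10.24 with camptothecin, against 10.18, 10.17 and 10.17 with DMSO. These tight groups differed by 0.11 (SE 0.07, adjusted p = 0.289). Hoxb3 measured 8.20, 8.34 and 8.28 with camptothecin and 8.36, 8.28 and 8.23 with DMSO. Its groups overlapped almost fully, and the 95% interval of its change ran from -0.18 to 0.16.

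The other 10 Hox genes lay between -0.10 and 0.13. Above 0 were Hoxc4 (0.13), Hoxc5 (0.12), Hoxa4 (0.11), Hoxb4 (0.10), Hoxc12 (0.10), Hoxd3 (0.09) and Hoxb2 (0.08). Below 0 were Hoxd4 (-0.10), Hoxb13 (-0.08) and Hoxd13 (-0.07). Hoxc5 was the least certain of the 22, with an interval from -0.40 to 0.65, because camptothecin replicate 3 (5.76) and DMSO replicate 3 (5.85) lay well below the rest of their groups. Of these 10 genes, Hoxc4, Hoxa4 and Hoxb4 were not dim. In GRCr8 the spans of Hoxa4, Hoxa5, Hoxb3, Hoxc4, Hoxc5 and Hoxd4 overlap another annotated gene, and whether their signal includes another transcript was not tested. None of the 5 risers has such an overlap.

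**Figure D2:**
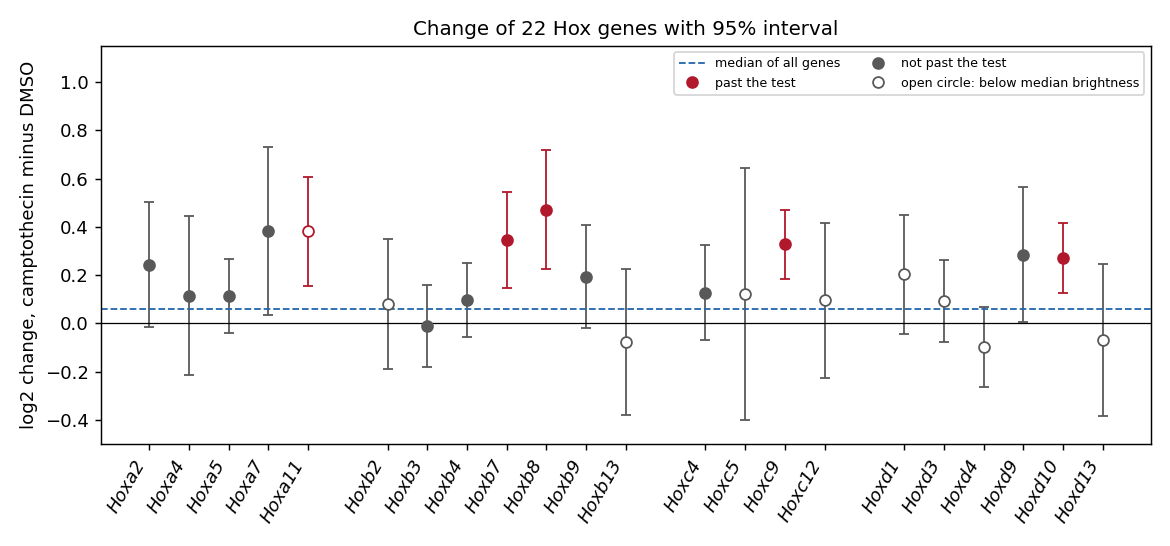
Log2 change, camptothecin minus DMSO (vertical axis), of the 22 Hox genes with limma's 95% interval, grouped by cluster and ordered by number. Red points passed the test, open circles are dim genes, and the dashed line is the median of all genes (0.06). Values are on the deposited scale, and with arrays centred on ribosomal protein genes the Hox median was -0.12.

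By cluster, the genes that rose numbered 1 of 5 in HoxA, 2 of 7 in HoxB, 1 of 4 in HoxC and 1 of 6 in HoxD, so each cluster held at least 1. The median changes were 0.24, 0.10, 0.13 and 0.15 in the same order. By position, 0 of 9 genes in paralogue groups 1 to 4 rose, 2 of 5 in groups 5 to 8, and 3 of 8 in groups 9 to 13. Their median changes were 0.10, 0.35 and 0.23. For all genes the share that rose was 11.3% and the median change 0.06.

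A finer split, drawn after the values were seen and so not tested, places all 5 risers in paralogue groups 7 to 11. There 5 of 8 genes rose and 8 of 8 had camptothecin arrays above DMSO arrays, with changes from 0.19 to 0.47. Among all genes 11.3% rose and 27.1% were separated upwards. In groups 1 to 5 the counts were 0 and 3 of 11, with changes from -0.10 to 0.24. In groups 12 and 13, used at tail levels, they were 0 and 0 of 3, and all 3 genes, Hoxb13, Hoxc12 and Hoxd13, were dim. Of the groups 7 to 11, Hoxa11 alone was dim, against 5 of 11 in groups 1 to 5. With arrays centred on ribosomal protein genes the changes in groups 7 to 11 stayed above 0 except for Hoxb9 (-0.05). Because centring shifts all genes alike, this follows from the changes as deposited, by which the split was drawn, and is no further evidence.

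The 22 genes share short spans, which moved with the calls in these data. In GRCr8, 19 of the 22 span under 10 kb, the 5 risers among them, at 1.75 to 3.66 kb. Of all 5051 genes under 10 kb, 15.3% rose and 1.21% fell, whereas of 1632 genes of 100 kb or more 1.84% rose and 34.9% fell. Brightness moved with the calls too. With all genes ordered by brightness and split into 3 equal bins, 0 of 5 Hox genes rose in the dimmest bin (2.56% of all genes there), 2 of 9 in the middle bin (11.7%) and 3 of 8 in the brightest bin (19.7%). The part of span and brightness in the Hox counts was not tested.

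Camptothecin replicate 2 stood above the other camptothecin arrays in most Hox genes. It was the highest of the 3 in 16 of the 22 genes, replicate 1 in 4 and replicate 3 in 2. Relative to the DMSO mean of each gene, the median Hox value was 0.13 in camptothecin replicate 1, 0.28 in replicate 2 and 0.12 in replicate 3. For all genes these medians were 0.05, 0.07 and 0.06 in the same order. Replicate 2 also had the highest array median, 6.33 against 6.31 and 6.32. Its ribosomal protein genes averaged 11.56, against 11.47 in replicates 1 and 3. Whether the excess belongs to the array or to the Hox genes was not tested. The median Hox change was 0.09 without camptothecin replicate 2, 0.18 without replicate 1 and 0.22 without replicate 3, against 0.13 with all arrays. The genes that rose then numbered 1, 2 and 1 in the same order. Among DMSO arrays, replicate 3 was the lowest, with a Hox median of -0.05 against 0.04 in each of the other two. The median change was 0.16 without DMSO replicate 1 or 2 and 0.12 without replicate 3, with 3, 0 and 1 genes that rose. Where 1 gene rose, it was Hoxc9. Each of these fits had 1 array fewer to test with, and the share of all genes called in them is not given here.

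**Figure D3:**
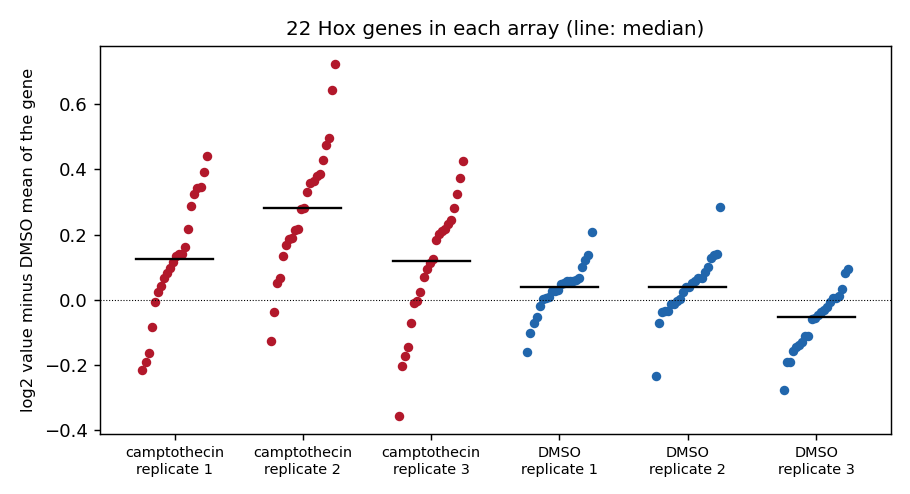
Log2 value minus the DMSO mean of the same gene (vertical axis) for the 22 Hox genes in each of the 6 arrays, 1 point per gene sorted by size, with the median as a line. The medians are 0.13, 0.28 and 0.12 in camptothecin arrays (red) and 0.04, 0.04 and -0.05 in DMSO arrays (blue). Medians of all genes, not drawn, were 0.05, 0.07 and 0.06 in camptothecin arrays and 0.02, -0.01 and -0.01 in DMSO arrays.

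The scale of the arrays bears on every change of this size. Centred on array medians, Hoxb8 (0.41, limma adjusted p = 0.0484) and Hoxc9 (0.26, adjusted p = 0.0291) rose, against 6.29% of all genes. Hoxa11, Hoxb7 and Hoxd10 then had adjusted p from 0.071 to 0.0889, with changes of 0.32, 0.28 and 0.20. The 67 cytoplasmic ribosomal protein genes were themselves higher in camptothecin arrays, by 0.25 on average. Centring on them moves the median change of all rows to -0.18, against 0.07 as deposited. On that scale the 5 risers lay between 0.02 and 0.23 and did not pass, beside 2.5% of all genes that rose. Hoxd4 (-0.34, limma adjusted p = 0.0096) and Hoxb3 (-0.26, adjusted p = 0.0272) then fell, beside 29.3% of all genes. Centring shifts all genes of an array alike, so it leaves the differences between Hox genes as they are, and whether the family lies above or below 0 depends on the scale chosen.

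**Figure D4:**
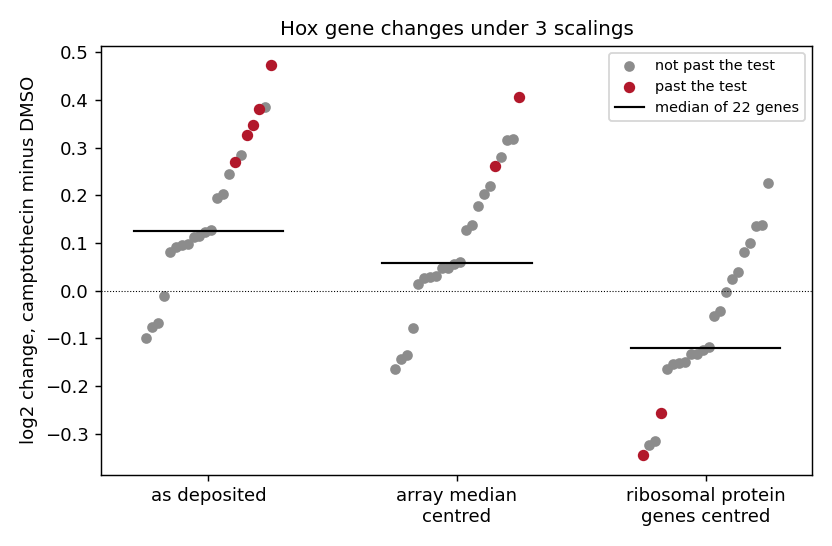
Log2 change, camptothecin minus DMSO (vertical axis), of the 22 Hox genes as deposited, with arrays centred on their median, and with arrays centred on ribosomal protein genes. Red points passed the test (5, 2 and 2 genes, the last 2 below 0), and lines are medians, 0.13, 0.06 and -0.12.

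Among the partners of Hox proteins, Meis1, Meis2 and Pbx3 fell and Meis3 rose. Of 9 measured TALE cofactor genes 3 fell and 1 rose, beside 9.35% and 11.3% of all genes, with a median change of -0.11. Meis1 measured 8.98, 9.03 and 8.87 with camptothecin, against 9.98, 9.82 and 9.94 with DMSO. It fell by 0.95 on the log2 scale (SE 0.08, limma adjusted p = 0.000415), with the groups far apart. Pbx3 (-0.39, SE 0.06) and Meis2 (-0.26, SE 0.07) fell and Meis3 (0.44, SE 0.10) rose. The calls of Meis1 and Pbx3 held in all 15 alternatives run for single genes, while Meis2 lost its call in 5 and Meis3 in 4 of the 6 fits without 1 array. Pbx2 (-0.11), Pbx4 (-0.10), Pknox1 (-0.14), Tgif1 (-0.04) and Tgif2 (0.09) did not pass. Meis1, Meis2 and Pbx3 span 143, 202 and 194 kb, lengths at which 34.9% of genes fell, and Meis3 spans 14.3 kb.

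**Figure D5:**
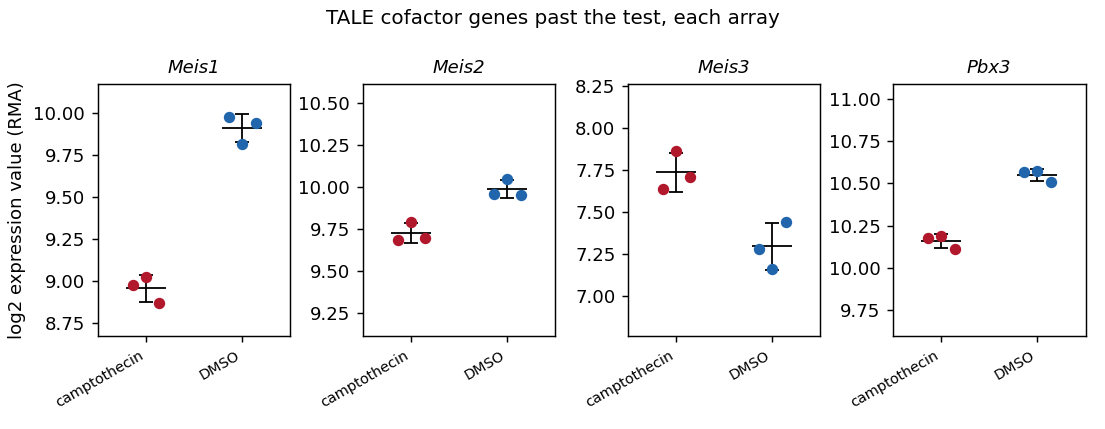
Log2 expression value (vertical axis, RMA scale) of the 4 TALE cofactor genes past the test in each camptothecin array (red) and DMSO array (blue), with mean and SD of 3 arrays. Meis1, Meis2 and Pbx3 lie lower and Meis3 higher in camptothecin arrays, and no groups overlap.

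Of 30 measured genes that control Hox clusters 4 rose and 5 fell, or 13.3% and 16.7% beside 11.3% and 9.35% of all genes, with a median of 0.07. The insulator factor Ctcf, which marks boundaries within Hox clusters, changed by -1.09 (SE 0.08), and the Polycomb subunit Cbx8 rose by 1.11 (SE 0.09). Egr2, which switches on Hoxa2 and Hoxb2 in the hindbrain, rose by 1.01 (SE 0.08), and the Polycomb subunit Bmi1 by 0.61 (SE 0.08). The calls of these 4 held in all 15 alternatives. Ctcf spans 49.5 kb, and Cbx8, Egr2 and Bmi1 span 2.44, 5.05 and 9.36 kb. Hoxa2 (0.24) and Hoxb2 (0.08) themselves did not pass. Of the other called genes, chosen for mention after their values were seen, Pcgf2 (0.58) rose, and Ezh2 (-0.53), Eed (-0.57), Rnf2 (-0.25) and Rxra (-0.47) fell. Pcgf2, Ezh2, Eed and Rnf2 are Polycomb subunits, and Rxra is a retinoid receptor. Pcgf2 spans 12.7 kb, and Ezh2, Eed, Rnf2 and Rxra span 27.1 to 86.5 kb.

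A list of genes linked to Hox proteins in motor neurons, drawn from background knowledge, held 15 measured genes. Whether each depends on Hox proteins was not tested. Of the 15, 2 fell and 1 rose, or 13.3% and 6.67% beside 9.35% and 11.3% of all genes. Foxp1, the Hox accessory factor of limb-level motor neurons, changed by -0.34 (SE 0.08) and Etv5 by -0.50 (SE 0.13), while Pou3f1, a factor of motor pools, rose by 0.31 (SE 0.08). Each of these calls was lost in 4 or 5 of the 6 fits without 1 array. Foxp1 and Etv5 span 691 and 57.6 kb and Pou3f1 spans 2.98 kb. Of 43 measured homeobox genes outside the clusters 4 fell and 2 rose, or 9.3% and 4.65% beside the same shares of all genes, with a median of 0.06. Pax3 (-0.67), Pax8 (-0.65) and Pax6 (-0.58) fell and the dim Dlx5 (0.40) rose. Dlx5 lost its call in all 6 fits without 1 array, and Pax3 in 1 of them. Pax3, Pax8 and Pax6 span 96.6, 57.1 and 21.7 kb and Dlx5 spans 4.4 kb.

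The 24 measured genes nearest to the clusters, 3 on each side of each in GRCr8, gave 1 rise and 2 falls, or 4.17% and 8.33% beside 11.3% and 9.35% of all genes, with a median of 0.10. Mtx2, a mitochondrial import gene and the nearest measured gene beyond Hoxd1, fell by 0.83 (SE 0.07). Atp5mc1, an ATP synthase subunit gene and the nearest measured gene beyond Hoxb13, rose by 0.57 (SE 0.09). Atf7, near Hoxc13, changed by -0.34 (SE 0.08) and lost its call in 5 of the 6 fits without 1 array. Mtx2 and Atf7 span 62.0 and 112 kb and Atp5mc1 2.97 kb, and the part of span in these calls was not tested. The homeobox genes Evx1 and Evx2, which border HoxA and HoxD beyond their group 13 ends, had values of 0.15 and 0.18 and did not pass. The other 19 lay between -0.15 and 0.43, the lowest being Hibadh and Tax1bp1 (-0.15 each) and the highest Atp5mc2 (0.43). Hoxd1, the Hox gene nearest to Mtx2, had a value of 0.20 as deposited and -0.04 with ribosomal centring, and Hoxb13, nearest to Atp5mc1, one of -0.08 as deposited. Neither Hox gene passed the test.

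Markers of cell types moved in part with the treatment. Of 13 measured spinal interneuron and sensory markers 6 fell and 0 rose by limma (1 higher at an unadjusted p under 0.05). That is 46.2% and 0%, beside 9.35% and 11.3% of all genes. The summed linear signal of the 13 was 3693 to 3863 in camptothecin arrays, against 5591 to 5908 in DMSO arrays. The largest falls there were those of the glycine transporter gene Slc6a5 (-1.79), the GABA synthesis gene Gad2 (-0.99) and the glutamate transporter gene Slc17a6 (-0.80), followed by Pax8. The 1 higher was Slc32a1 (0.23, limma adjusted p = 0.0759), with all camptothecin arrays above all DMSO arrays. The 6 that fell span 40.1 to 91.2 kb, and of all genes of 30 to 100 kb 16.2% fell. Slc32a1 spans 4.47 kb. Of 12 motor neuron markers 3 rose and 1 fell, or 25% and 8.33% beside 11.3% and 9.35% of all genes. At an unadjusted p under 0.05 limma gave 3 of these markers higher and 4 lower, beside 3224 and 1925 of all 14506 genes. The median change of these markers was -0.05. Their sums were 4016 to 4464 in camptothecin arrays and 3602 to 3753 in DMSO arrays. Nefm, the brightest of them, made up most of that difference, with a mean linear signal of 2027 in camptothecin arrays and 1515 in DMSO arrays, where the sums averaged 4256 and 3675. The risers code for intermediate filament proteins of axons, Nefh (0.59), Nefm (0.42) and Prph (0.31), and Foxp1 fell. These filament genes span 4.18 to 9.99 kb and Foxp1 spans 691 kb. Prph lost its call in all 6 fits without 1 array, and Foxp1 in 5, while Nefh and Nefm kept theirs in all 6. In arrays of whole cultures fewer cells of a type and less RNA per cell cannot be told apart. The part of span in these shifts, and of these shifts in the Hox changes, was not tested. Among the 12 motor neuron markers Isl1, Isl2, Lhx4, Slc18a3, Slc5a7 and Prph were dim, whereas of the 13 interneuron and sensory markers only Evx1 was. The name motor neurons is that of the labels, and the share of motor neurons in the cultures was not tested.

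Of 5 forebrain and midbrain markers, regions that lack Hox expression, 0 passed by limma (1 higher at an unadjusted p under 0.05), 3 were dim, and the dim Emx2 had the largest change (0.29). The sums were 447 to 485 in camptothecin arrays and 440 to 453 in DMSO arrays. Progenitor and astroglial markers summed to 10999 to 11354 in camptothecin arrays and 10829 to 11004 in DMSO arrays, with 1 fall in 10, that of Pax6. Oligodendrocyte and Schwann cell markers summed to 665 to 691 in camptothecin arrays and 733 to 770 in DMSO arrays, with 1 fall in 6, that of the myelin gene Mbp (-0.48). Fibroblast markers summed to 972 to 1147 in camptothecin arrays and 1081 to 1158 in DMSO arrays, with 1 fall in 10, that of the fibronectin gene Fn1 (-0.36), which lost its call in 2 of the 6 fits without 1 array. Skeletal muscle markers summed to 499 to 518 in camptothecin arrays and 460 to 491 in DMSO arrays, with 1 rise in 8, that of the actin gene Acta1 (0.32), which lost its call in 5 of these fits. Endothelial, blood and microglial markers summed to 648 to 727 in camptothecin arrays and 631 to 642 in DMSO arrays. None of these 10 passed by limma (3 higher at an unadjusted p under 0.05), and the haemoglobin gene Hbb had the largest change (0.27). Each of these lists held at most 1 call, beside 11.3% of all genes that rose and 9.35% that fell. Of all 14506 genes limma gave 3224 higher and 1925 lower at an unadjusted p under 0.05.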

How the data were processed

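RNA from cultured motor neurons was hybridised to Affymetrix Rat Gene 1.0 ST arrays, 1 array for each of 6 samples. Each deposited value is a log2 expression value of 1 transcript cluster on 1 array, made with RMA and oligo per the submitters' processing notes. The build, the probe annotation and tool versions were not given in the sources used here. Names came from the platform annotation, with 15310 rows of 1 symbol, 323 of several and 13581 of none. They were updated by gene identifier through RefSeq's GRCr8 table, in which 15279 of the 15310 matched. For each gene the row with the highest mean was used.

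The 29214 rows were fitted together as deposited with lmFit and eBayes in limma 3.58.1 (R 4.3.3). A gene that did not pass is not shown to be unchanged. Every Hox gene was named, and of each other list up to 4 members past the threshold, or 1 where none passed. Beyond this rule, 5 more called regulators and 5 TALE cofactors that did not pass were named after their values were seen. The members and lists were chosen with earlier results of these data known. Alternatives were another quantile normalization, centring on array medians or ribosomal protein genes, no dim rows, the replicate block, trend and robust, array weights, 1 array left out, 1-symbol rows, a threshold of 0.01, treat at 1.2-fold and the mean over rows.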

Additional observations from a re-analysis of the deposited data

How the results depend on the processing

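Over the alternatives, 5 Hox genes were higher as deposited, and also with trend and robust, array weights, 1-symbol rows and the mean over rows. With quantile normalization again, and without dim rows (13 Hox genes left), it was 4. The count was 2 with arrays centred on their median, 0 with ribosomal centring, 0 at a threshold of 0.01, 0 with treat at 1.2-fold, and 0 to 3 with 1 array left out (0 without DMSO replicate 2). These last 3 kinds ask for more or test with fewer arrays. Without dim rows, the dim Hoxa11 was left out of the fit, and the other 4 risers kept their calls. The cause of the remaining losses was not tested. The count of Hox genes lower was 0 in all alternatives but ribosomal centring, which gave 2. Shares of all genes called are given above for the centred arrays and not for the other alternatives. The median Hox change was 0.13 as deposited and -0.12 with ribosomal centring. With the replicate number as a block 2 Hox genes were higher, Hoxb7 and Hoxb8. The deviations of same-numbered arrays correlated at -0.08, 0.02 and 0.08, and those of other pairs between -0.16 and 0.15. With 3 arrays per group these values cannot show whether same-numbered samples shared a preparation. Signs turned with ribosomal centring for Hoxa2 (-0.0021), Hoxa4 (-0.13), Hoxa5 (-0.13), Hoxb2 (-0.16), Hoxb4 (-0.15), Hoxb9 (-0.052), Hoxc4 (-0.12), Hoxc5 (-0.12), Hoxc12 (-0.15), Hoxd1 (-0.043) and Hoxd3 (-0.15). They did so as well for the cluster neighbours Skap2 (-0.13), Snx10 (-0.031), Cbx3 (-0.15), Evx1 (-0.096), Snf8 (-0.15), Skap1 (-0.16), Snx11 (-0.075), Nfe2l1 (-0.036), Cbx5 (-0.19), Hnrnpa1 (-0.23), Evx2 (-0.071), Lnpk (-0.17), Atp5mc3 (-0.12) and Nfe2l2 (-0.11). They turned with array weights for Hoxa4 (-0.0056) and Hoxc5 (-0.054), with array medians for Cbx5 (-0.0060) and Hnrnpa1 (-0.050), and with quantile normalization for Hnrnpa1 (-0.033). With 1 array left out the changes ran from -0.019 to 0.26 for Hoxa4, -0.035 to 0.15 for Hoxb2, -0.043 to 0.025 for Hoxb3, -0.037 to 0.36 for Hoxc5 and -0.15 to 0.075 for Hoxd13. For neighbours they ran from -0.097 to 0.031 for Ube2z, -0.017 to 0.14 for Skap1, -0.022 to 0.042 for Hnrnpa1, -0.052 to 0.15 for Lnpk and -0.020 to 0.0084 for Hnrnpa3. None of these genes passed the test as deposited.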
